A study of Mus musculus with 43 samples.

Results

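Shank1, Shank2, Shank3, Dlg1, Dlg2, Dlg3, Dlg4, Dlgap1, Dlgap2 and Dlgap3 encode the layered scaffold of the excitatory postsynaptic density, and they were followed here through the nuclear RNA and the open chromatin of cortical neurons. The 10 genes were taken by symbol from the 53379 gene IDs of the RNA tables. Their accessible regions were all regions that overlapped a gene's span or lay within 1 kb of its annotated start, 590 of 165184 regions in females and 624 of 192919 in males. The rule uses symbols and positions, and the genes were chosen with earlier results of these data known. The study asked how environmental enrichment (EE) affects neurons of the frontal cortex, with standard housing (SH) as the comparison. EE mice lived in larger cages with a running wheel, a plastic tube, extra nesting material and regularly changed toys, and SH mice lived in small cages with bedding and a nestlet. All mice were wild-type Swiss Webster animals, weaned at postnatal day 25 and 2 months old at sampling. The tissue was fixed, its nuclei were stained for the neuronal nuclear protein NeuN and sorted, and each library was made either from nuclear RNA (RNA-seq) or from transposase-accessible DNA (ATAC-seq, which counts adapter insertions into open chromatin). RNA was measured in 6 EE and 6 SH libraries of females and in 6 EE and 6 SH libraries of males. ATAC was measured in 3 EE and 3 SH libraries of females and in 6 EE and 7 SH libraries of males.

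In the postsynaptic density, Dlg proteins (PSD-95 and its relatives) lie next to the membrane and hold glutamate receptors and adhesion molecules through their PDZ domains. Dlgap proteins bind the guanylate kinase domain of the Dlg proteins and pass the link on to the Shank proteins, which sit deeper in the spine and bind Homer and regulators of the actin cytoskeleton. Loss or mutation of several of these genes in humans or mice is linked to autism, schizophrenia or compulsive behaviour. On mm10, as the female RNA table places the genes, all 10 lie on the plus strand. Shank1 (ENSMUSG00000038738) spans chr7:44310253-44360572, Shank2 (ENSMUSG00000037541) chr7:144001928-144424494 and Shank3 (ENSMUSG00000022623) chr15:89499623-89560261. Dlg1 (ENSMUSG00000022770) spans chr16:31663443-31873356, Dlg2 (ENSMUSG00000052572) chr7:91090706-92449247, Dlg3 (ENSMUSG00000000881) chrX:100767722-100818410 and Dlg4 (ENSMUSG00000020886) chr11:70017085-70045532. Dlgap1 (ENSMUSG00000003279) spans chr17:69969073-70821413, Dlgap2 (ENSMUSG00000047495) chr8:14095865-14847680 and Dlgap3 (ENSMUSG00000042388) chr4:127169204-127237022.

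The RNA libraries of females held 10.6 to 15.4 M counts each (M, 1000000) and those of males 10.4 to 14.6 M. In ATAC the totals were 19.1 to 26.3 M for females and 27.7 to 73.8 M for males. Each scaffold gene had between 790 and 88665 RNA counts per female library and between 633 and 83414 per male library, and the 10 genes together took 1.26% to 1.41% of all RNA counts. The 6 neuronal markers checked, among them Rbfox3 (the gene of NeuN), summed to 6072 to 7387 counts-per-million (CPM) over the 24 RNA libraries, with counts in every library. RNA of other cell types was present at lower levels. Female SH replicate 2 had the highest level of non-neuronal markers, 1.31 above the average of its table on the log2 scale, against -0.43 to 0.53 in the female EE libraries and -0.48 to 0.02 in the other female SH libraries. Fitted levels were higher in EE than in SH for 2 of 8 astrocyte, 1 of 8 oligodendrocyte and 0 of 4 tested microglial markers in females, and for 8 of 8, 8 of 8 and 2 of 4 in males. For oligodendrocyte precursor markers it was 2 of 3 in females and 1 of 3 in males, and for vascular markers 1 of 5 and 3 of 5. Astrocyte, oligodendrocyte and vascular directions ran mostly with those of the scaffold genes, and those of the precursor markers ran the other way. In either sex, 0 markers of any cell type were called. The astrocyte markers summed to 373 to 502 CPM in female EE and 332 to 533 CPM in female SH, with a higher median in EE (426 against 356 CPM). In males they summed to 227 to 272 CPM in EE and 209 to 249 CPM in SH. The oligodendrocyte markers summed to 141 to 250 CPM in female EE and 126 to 374 CPM in female SH, and to 102 to 250 CPM in male EE and 114 to 151 CPM in male SH. The sums of the 6 microglial markers were far apart between the RNA tables. They were 33.7 to 52.5 CPM in female EE and 34.9 to 79.5 CPM in female SH. In males they were 1300 to 1927 CPM in EE and 1427 to 2038 CPM in SH. Of the 6 markers, 4 passed the low-count filter in each sex, so a sum can rest on few genes. The part of other cell types in the results below was not tested beyond the fits with these markers that are given beside them. The labels do not say that replicates come from separate animals, so a p measures the spread between these libraries. In sorted pools of nuclei, fewer cells of a type and less RNA per cell cannot be told apart.

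Promoter sequences from RefSeq, on build GRCm38.p6 (the patch release of the assembly named mm10), were found for 7 of the 10 genes, as 16 windows that reach from 250 bases before to 50 bases after a transcript start. Shank1, Shank2 and Dlgap2 had no entry. The windows below are shown because accessible regions lay over or beside them and because they differ in base composition. Windows not shown include Dlg1 windows with 33.7% and 40.3% G and C and a Dlg2 window with 43.0%. All are on the plus strand. Capitals mark the GC box (GGGCGG, the letters that Sp1-type factors recognise) or the EGR motif (GCGTGGGCG), each searched on both strands.
Shank3 chr15:89499358-89499657: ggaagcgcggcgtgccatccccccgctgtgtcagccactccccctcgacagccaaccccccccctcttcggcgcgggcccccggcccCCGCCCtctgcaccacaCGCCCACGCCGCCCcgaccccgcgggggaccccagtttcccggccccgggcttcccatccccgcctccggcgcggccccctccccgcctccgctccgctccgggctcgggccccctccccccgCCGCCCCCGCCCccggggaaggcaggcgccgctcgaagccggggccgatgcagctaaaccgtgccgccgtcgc
Dlg1 chr16:31663685-31663984: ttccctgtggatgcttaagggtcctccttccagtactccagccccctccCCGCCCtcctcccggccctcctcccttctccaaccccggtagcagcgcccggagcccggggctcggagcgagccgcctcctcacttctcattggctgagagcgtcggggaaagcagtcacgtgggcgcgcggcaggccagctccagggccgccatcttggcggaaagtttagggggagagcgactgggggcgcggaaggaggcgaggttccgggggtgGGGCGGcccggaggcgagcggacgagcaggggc
Dlg2 chr7:91090536-91090835: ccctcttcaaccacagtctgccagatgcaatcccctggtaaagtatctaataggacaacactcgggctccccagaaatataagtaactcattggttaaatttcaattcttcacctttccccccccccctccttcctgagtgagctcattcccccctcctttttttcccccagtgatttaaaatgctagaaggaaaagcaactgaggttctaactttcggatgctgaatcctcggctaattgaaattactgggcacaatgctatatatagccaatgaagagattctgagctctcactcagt
Dlg4 chr11:70018355-70018654: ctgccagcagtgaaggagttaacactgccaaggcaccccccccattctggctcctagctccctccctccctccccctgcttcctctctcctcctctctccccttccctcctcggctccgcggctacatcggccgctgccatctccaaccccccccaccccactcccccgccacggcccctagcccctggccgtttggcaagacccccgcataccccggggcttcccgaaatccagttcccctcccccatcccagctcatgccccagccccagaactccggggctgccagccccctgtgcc
Dlgap1 chr17:69968823-69969122: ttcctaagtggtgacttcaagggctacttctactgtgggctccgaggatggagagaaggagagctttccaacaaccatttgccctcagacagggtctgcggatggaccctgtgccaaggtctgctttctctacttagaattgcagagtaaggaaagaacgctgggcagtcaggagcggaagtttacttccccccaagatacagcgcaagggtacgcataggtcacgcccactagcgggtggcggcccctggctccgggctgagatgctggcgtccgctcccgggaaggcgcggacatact
Dlgap1, internal start, chr17:70561497-70561796: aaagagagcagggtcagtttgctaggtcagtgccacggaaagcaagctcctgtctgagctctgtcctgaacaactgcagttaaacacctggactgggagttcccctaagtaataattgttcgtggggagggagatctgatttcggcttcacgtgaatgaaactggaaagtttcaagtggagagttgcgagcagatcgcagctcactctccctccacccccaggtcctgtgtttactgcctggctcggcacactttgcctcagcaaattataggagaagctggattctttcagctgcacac
The Shank3 window was 81.0% G and C with 40 CpG dinucleotides, against medians of 52.7% and 7 over 32851 mouse promoter windows. It held 4 GC boxes and 1 EGR motif, whose last base is shared with a GC box. The Dlg1 window was 71.0% G and C and held 2 GC boxes, whereas the Dlg2 window had 44.7% G and C, 3 CpG dinucleotides and no GC box. The printed Dlg4 window and both Dlgap1 windows held none of the motifs searched. Dlg1, Dlg2 and Dlg4 also had windows not printed here, and the Dlg4 window at chr11:70023732-70024031 held 2 GC boxes. The printed Dlg1 and Dlg4 windows belong to starts 492 and 1520 bases inside the annotated gene start. A GC box occurs in 35.7% of all windows and the EGR motif in 0.612%. The other motifs searched on both strands were AP-1 (TGANTCA, in 7.81% of all windows), CRE (TGACGTCA, 1.79%) and the TATA box (TATAAA, 13.6%). None of these 3 matched a window printed here. A match is a run of letters and not a shown binding site.

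The 10 genes differed widely in nuclear RNA. By CPM, Dlg2 was the most abundant, at 5724 ± 280 CPM in female EE neurons and 6162 ± 448 in female SH neurons (SD, n = 6 each), and Dlg3 the least, at 74.1 ± 2.38 and 76.5 ± 2.56 CPM in the same groups. Nuclear reads fall on introns as well as exons, so long genes collect more of them, and Dlg2 spans 1358.5 kb against 28.4 kb for Dlg4. Per kb of gene span, Shank1 stood first with 11.1 ± 0.78 CPM per kb in female EE and 11.7 ± 0.54 in female SH. Dlg4, the gene of PSD-95, followed at 4.61 ± 0.225 CPM per kb in female EE and 4.66 ± 0.17 in female SH. Dlg2 had 4.21 ± 0.206 CPM per kb in female EE and 4.54 ± 0.329 in female SH, which lay within 1 SD of Dlg4 in SH. Dlgap2 and Dlgap3 did not differ beyond their spread in female EE (3.70 ± 0.21 and 3.64 ± 0.194 CPM per kb). Dlgap1 had 2.94 ± 0.128 CPM per kb in female EE and 2.93 ± 0.101 in female SH, and Shank3 had 2.47 ± 0.0878 and 2.57 ± 0.18. Dlg1 (1.72 ± 0.109 and 1.85 ± 0.0948), Shank2 (1.5 ± 0.0766 and 1.61 ± 0.121) and Dlg3 (1.46 ± 0.0469 and 1.51 ± 0.0506) were lowest in female EE and female SH, and Shank2 and Dlg3 lay within 1 SD of each other. By the mean over all 12 libraries of a table the order was the same in males, although in male EE alone Dlg2 (4.37 ± 0.264 CPM per kb) stood above Dlg4 (4.25 ± 0.235), again within 1 SD. Whether reads were counted by strand is not given in the sources used here, so reads of genes that overlap a member cannot be told apart from its own. The longest such overlap is Gm14372 on the opposite strand of Shank2, over 38886 bases.

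**Figure D1:**
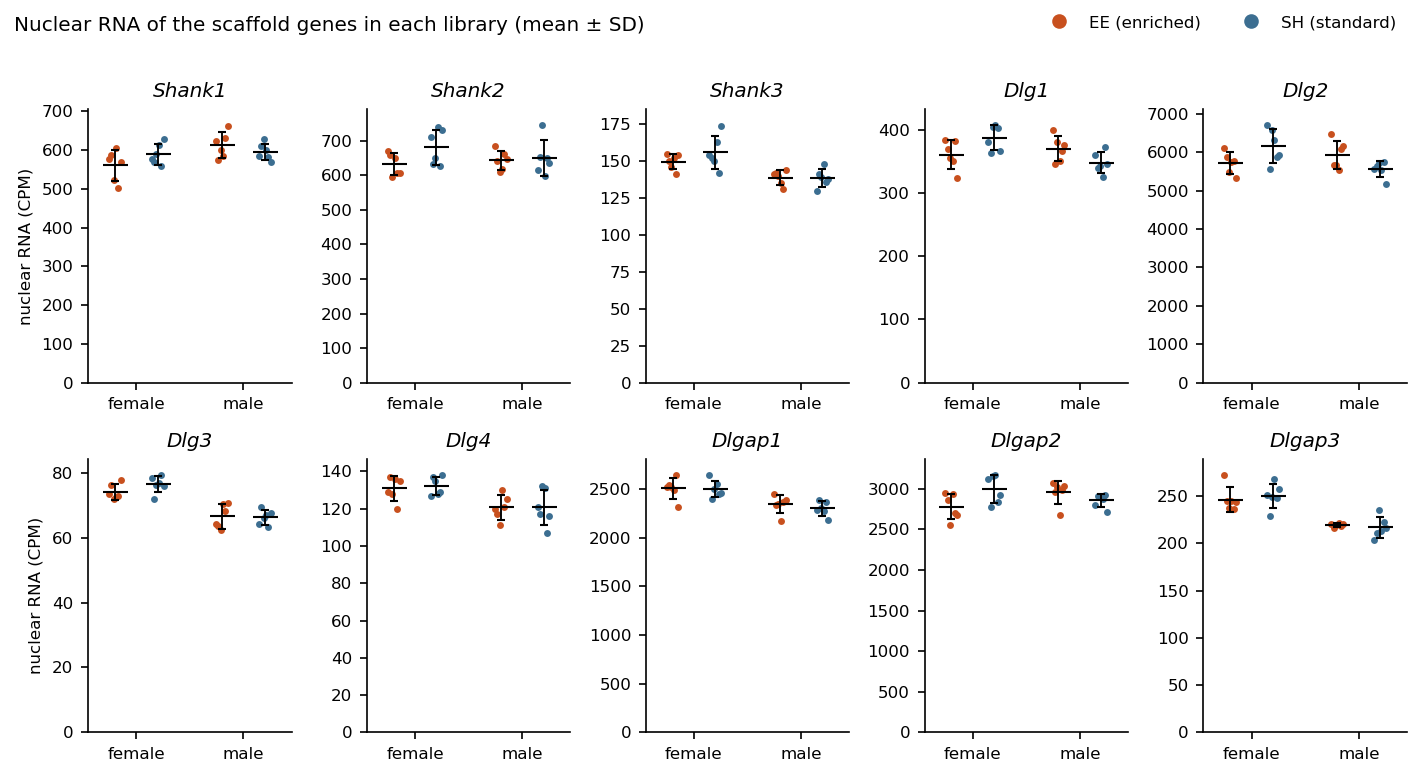
Nuclear RNA of the 10 genes in CPM (each vertical axis starts at 0) for every library, with EE left of SH in each sex. Points are libraries, bars are mean ± SD (n = 6 per group). The housing groups overlap in both sexes of all 10 panels, for example Dlg2 in females with 5323 to 6115 CPM in EE and 5559 to 6704 CPM in SH.

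In females, none of the 10 scaffold genes passed the test for a difference in RNA, and those nearest to it were lower in EE. None was called by edgeR's quasi-likelihood test at a Benjamini-Hochberg adjusted p under 0.05, and 0% of the 14587 genes tested were called (1265 genes had an unadjusted p under 0.05, and DESeq2 called 117 genes, 0 of them members). The EE and SH ranges of all 10 overlapped, as they did for all but 0.548% of the genes tested. All 10 passed the filter on low counts. The fold changes of EE over SH ran from -0.11 to 0.00 on the log2 scale, and the 95% confidence intervals of the 10 genes all lay between -14.1% and 6.44%. Fitted values were below 0 for 9 of 10 genes, against 49.4% of all genes, and the median was -0.06 against 0.00. The 10 genes share their libraries, so their directions are not independent. Between libraries of a group, the median log2 level over the 10 genes had an SD of 0.0491. An unadjusted p under 0.05 was reached by 3 of the 10, all lower in EE, against 8.67% of all genes in either direction and 4.14% lower. This count was 0 when EE replicate 3, EE replicate 6, SH replicate 1 or SH replicate 4 was left out. It was 1 without EE replicate 4, EE replicate 5 or SH replicate 3, and 4 without EE replicate 1 or SH replicate 2. SH replicate 2 was richest in non-neuronal RNA, and EE replicate 1 had a non-neuronal level of -0.12. A fit with the non-neuronal level as covariate gave a count of 4.

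Among the Shank genes of females, Shank2 came nearest to the threshold. Shank2, whose protein joins receptor complexes to the spine's core, had 596, 628 and 672 CPM (lowest, median and highest) in EE and 627, 680 and 740 CPM in SH. Every EE library lay below the SH median, and 3 of the 6 lay inside the SH range. Its log2 fold change was -0.11 ± 0.05 (SE; adjusted p = 0.576), and -0.13 without SH replicate 2. With each library left out in turn it ran from -0.13 to -0.08. Shank1, a scaffold of mature spines, had 503, 572 and 605 CPM in EE and 558, 583 and 628 CPM in SH. Its groups overlapped, with a log2 fold change of -0.07 ± 0.05 (adjusted p = 0.732). Shank3, the gene lost in Phelan-McDermid syndrome in humans, had 141, 151 and 155 CPM in EE and 142, 153 and 174 CPM in SH. The highest Shank3 value was that of 1 SH library, and the log2 fold change was -0.06 ± 0.05 (adjusted p = 0.788).

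Of the Dlg genes in females, Dlg1 and Dlg2 had the most negative fold changes. Dlg1, which encodes SAP97, a carrier of AMPA receptors, had 323, 362 and 384 CPM in EE and 363, 392 and 407 CPM in SH. All 6 EE libraries were below the SH median, and 3 were inside the SH range (log2 fold change -0.10 ± 0.05, adjusted p = 0.576). Dlg2, which encodes PSD-93, had 5323, 5765 and 6115 CPM in EE and 5559, 6126 and 6704 CPM in SH. Each EE library was again below the SH median, and 4 were inside the SH range (log2 fold change -0.11 ± 0.05, adjusted p = 0.589). The X-linked Dlg3, which encodes SAP102, had 71.8 to 77.7 CPM in EE and 72.0 to 79.3 CPM in SH (log2 fold change -0.05 ± 0.04). Dlg4 had 120 to 137 CPM in EE and 127 to 138 CPM in SH (log2 fold change -0.02 ± 0.05, and 0.01 with scaling by total count). Dlg4 was split evenly, with 3 EE libraries on either side of the SH median.

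Among the Dlgap genes of females, Dlgap2 had the lowest fold change. Dlgap2, which encodes SAPAP2, had 2556, 2779 and 2948 CPM in EE and 2769, 3023 and 3167 CPM in SH. Of its EE libraries, 6 of 6 lay below the SH median and 3 inside the SH range (log2 fold change -0.11 ± 0.05, adjusted p = 0.559). Dlgap1, which encodes GKAP, had 2315 to 2649 CPM in EE and 2402 to 2644 CPM in SH, with a log2 fold change of 0.00 ± 0.04. Its 95% interval ran from -0.09 to 0.09, and its sign turned with the scaling (-0.0022 with RLE size factors). Dlgap3, whose loss causes compulsive grooming in mice, had 236 to 272 CPM in EE and 229 to 268 CPM in SH (log2 fold change -0.02 ± 0.05).

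In males, 0 of the 10 scaffold genes were called, against 0.0411% of the 14597 genes tested. Their log2 fold changes ran from -0.01 to 0.09, and the 95% intervals lay between -7.34% and 13.3%. Fitted values were above 0 for 9 of 10 genes and below 0 for 52.1% of all genes, with a median of 0.02 against -0.01. Here too the genes share their libraries, and the median log2 level had an SD between libraries of a group of 0.0357. With scaling by total count, Shank3, Dlg3, Dlg4, Dlgap1 and Dlgap3 turned below 0 (-0.03, -0.02, -0.03, -0.0042 and -0.01), so the count above 0 depends on the scaling. An unadjusted p under 0.05 was reached by 2 of 10, both higher in EE, against 8.03% of all genes in either direction and 4.09% higher. That count was 0 without EE replicate 1, EE replicate 6, SH replicate 2, SH replicate 4 or SH replicate 6, 1 without EE replicate 3, EE replicate 5, SH replicate 1 or SH replicate 3, and 3 without EE replicate 4.

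The pair in question was Dlg1 and Dlg2. Dlg1 had 346, 371 and 399 CPM in male EE and 325, 344 and 373 CPM in male SH. All 6 EE libraries were above the SH median and 3 were inside the SH range (log2 fold change 0.09 ± 0.04, adjusted p = 0.614). Dlg2 had 5538, 5881 and 6471 CPM in male EE and 5172, 5605 and 5749 CPM in male SH. Of the EE libraries of Dlg2, 5 of 6 were above the SH median (log2 fold change 0.09 ± 0.04, adjusted p = 0.608). In a fit with the non-neuronal level as covariate, Dlg1 had a log2 fold change of 0.09 and Dlg2 had 0.11.

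The other male values were closer to 0. Dlgap2 had 2670, 3002 and 3065 CPM in male EE and 2718, 2892 and 2924 CPM in male SH, with a log2 fold change of 0.05 ± 0.04 (adjusted p = 0.803). Here 5 EE libraries lay above every SH library and 1 lay below every SH library. Shank1 had 575 to 663 CPM in EE and 570 to 627 CPM in SH (log2 fold change 0.04 ± 0.04), and Shank2 had 610 to 685 CPM in EE and 599 to 746 CPM in SH (-0.01 ± 0.05). Shank3 averaged 139 ± 4.91 CPM in male EE and 139 ± 5.82 CPM in male SH (SD, n = 6 each; 95% interval of the log2 fold change -0.08 to 0.08). Dlg4 averaged 121 ± 6.67 CPM in EE and 121 ± 9.69 CPM in SH, and Dlg3 averaged 66.5 ± 3.74 and 66.2 ± 2.24 CPM. Dlgap1 had a log2 fold change of 0.03 ± 0.04. Dlgap3 had the tightest EE values, with 216 to 222 CPM in the 6 EE libraries and 204 to 235 CPM in the 6 SH libraries (0.02 ± 0.04).

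**Figure D2:**
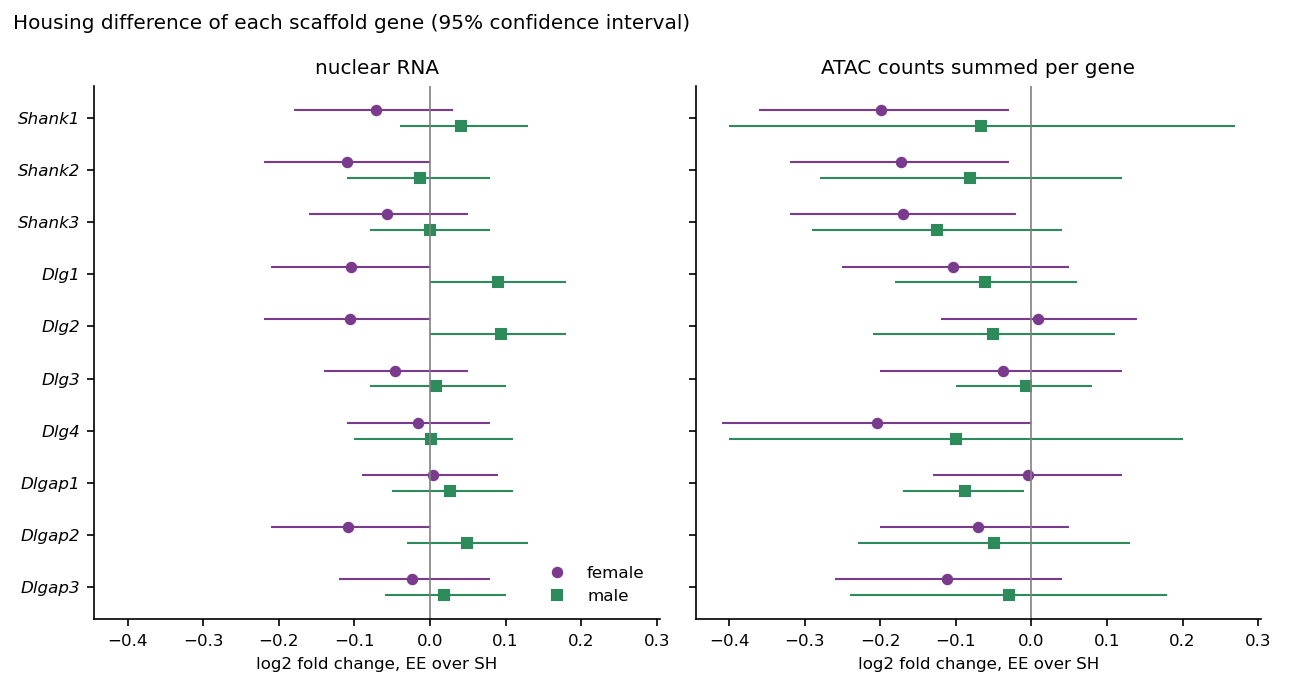
Log2 fold change of EE over SH for each gene in nuclear RNA (left) and in ATAC counts summed over a gene's regions (right), for females (circles) and males (squares), with 95% confidence intervals. In RNA, Dlg1 sits at -0.10 in females and 0.09 in males and Dlg2 at -0.11 and 0.09, while in summed ATAC the Shank genes of females sit between -0.20 and -0.17.

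The difference between the sexes was tested directly, in 1 fit of the 24 RNA libraries with a sex by housing interaction. Dlg1 and Dlg2 gave the largest differences of the 10 genes. The female minus male difference in log2 fold change was -0.20 ± 0.07 for Dlg1 (SE; adjusted p = 0.307) and -0.20 ± 0.07 for Dlg2 (adjusted p = 0.318). Dlgap2 followed at -0.16 ± 0.06 (adjusted p = 0.422). None of the 10 was called, against 0.00643% of 15562 genes. The fitted female minus male difference was below 0 for all 10 genes, from -0.20 to -0.02, against 48% of all genes, and 3 of the 10 had an unadjusted p under 0.05, against 8.98% of all genes and 4.58% with a difference below 0. Whichever single library was left out, 3 or 4 of the 10 genes had an unadjusted p under 0.05. Over these fits the differences ran from -0.22 to -0.17 for Dlg1, from -0.24 to -0.17 for Dlg2 and from -0.19 to -0.14 for Dlgap2. Without female SH replicate 2, they were -0.22, -0.24 and -0.19 in that order. The 10 values share their libraries and are not independent of each other. The astrocyte and oligodendrocyte markers also lay mostly in opposite directions in the 2 sexes, and the microglial sums of the 2 tables did not overlap, as given above. Their part in the interaction was not tested. Each sex was counted in a table of its own with its own run name, and an effect of the run cannot be told apart from one of sex.

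Other genes of the excitatory postsynaptic density were read beside the scaffold, from a list of 58 receptors, adhesion molecules, kinases and adaptors, of which 57 passed the filter in each RNA table. In females, 33 had fitted values below 0 and 24 above, and 0 were called, against 0% of all genes tested. An unadjusted p under 0.05 was reached by 8 (14.0%, 5 lower and 3 higher), against 8.67% of all genes and 4.14% lower. The smallest p values belonged to Kcnj4, an inward rectifier potassium channel that binds PSD-95, to Cacng3, an AMPA receptor auxiliary subunit, and to Camk2a, the kinase of the density. Kcnj4 averaged 35.1 ± 2.73 CPM in female EE and 27 ± 3.66 CPM in female SH (log2 fold change 0.38 ± 0.08, adjusted p = 0.118). Cacng3 averaged 351 ± 21.3 and 402 ± 28.3 CPM (-0.20 ± 0.05, adjusted p = 0.191), and Camk2a 886 ± 37.7 and 980 ± 47.8 CPM (-0.15 ± 0.05, adjusted p = 0.267), in EE and SH in that order.

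In males, 29 of the 57 partners had fitted values below 0 and 28 above, and 0 were called, against 0.0411% of all genes tested. An unadjusted p under 0.05 was reached by 8 (14.0%, 2 lower and 6 higher), against 8.03% of all genes and 4.09% higher. Gria4, an AMPA receptor subunit, averaged 982 ± 45.7 CPM in male EE and 849 ± 40.4 CPM in male SH (log2 fold change 0.21 ± 0.04, adjusted p = 0.0684). All 6 EE libraries of Gria4 lay above the SH median. Lrrc4c, an adhesion ligand held by PSD-95, averaged 1790 ± 78.6 and 1610 ± 35.4 CPM in EE and SH (0.15 ± 0.04, adjusted p = 0.214), and its groups did not overlap. Of all genes tested in males, 0.541% had groups that did not overlap. Nos1, the neuronal nitric oxide synthase that docks on PSD-95, averaged 15.1 ± 1.5 and 19.0 ± 2.46 CPM in EE and SH (-0.32 ± 0.09, adjusted p = 0.267).

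In open chromatin, most regions of these genes had fitted values below 0 in both sexes, and no region passed the test. In females, 0 of the 590 member regions were called, against 0.0473% of the 164926 regions tested. Fitted values were below 0 in 364 regions (61.7%), against 51.7% of all regions tested and 56.6% of all regions in or at any gene, and the median log2 fold change was -0.07 against -0.01 and -0.04. An unadjusted p under 0.05 was reached by 33 regions (5.59%), 30 of them lower in EE, against 8.01% of all regions in either direction and 3.48% lower. In males, 0 of the 624 member regions were called, against 0% of 192834 (8746 regions had an unadjusted p under 0.05, and DESeq2 called 7, 0 of them members). Fitted values were below 0 in 447 regions (71.6%), against 50.3% of all regions tested and 53.2% of those in or at any gene, and the median was -0.07 against 0.00 and -0.01. The 38 regions with an unadjusted p under 0.05 (6.09%) were all lower in EE, against 4.54% of all regions in either direction and 1.92% lower. The regions of a gene share their libraries, so these counts are not counts of independent events. Regions of the 58 partner genes had fitted values below 0 in 61.1% of 2520 cases in females and in 63.9% of 2613 in males. Among them 1 region was called in females, against 0.0473% of all regions, and 0 in males, against 0%. In females, 225 partner regions (8.93%) had an unadjusted p under 0.05. Of these, 170 were lower in EE (6.75%, against 5.08% of member regions). In males, 129 partner regions (4.94%) had such a p, and 101 were lower (3.87%, against 6.09% of member regions). The scaffold regions took 0.256% to 0.275% of all ATAC counts in female EE and 0.266% to 0.285% in female SH, and 0.212% to 0.260% in male EE and 0.207% to 0.268% in male SH. The number of regions with an unadjusted p under 0.05 depended on single libraries. In females it was 15 when EE replicate 2, 21 when SH replicate 3 and 57 when SH replicate 1 was left out. In males it was 20 when EE replicate 4, 25 when SH replicate 3 and 66 when SH replicate 6 was left out. With each library left out in turn, the median ran from -0.11 to -0.05 in females and from -0.11 to -0.03 in males. Between libraries of a group, the median log2 level over member regions had an SD of 0.0547 in females and 0.132 in males, so the male median of -0.07 was smaller than the spread of single libraries.

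**Figure D3:**
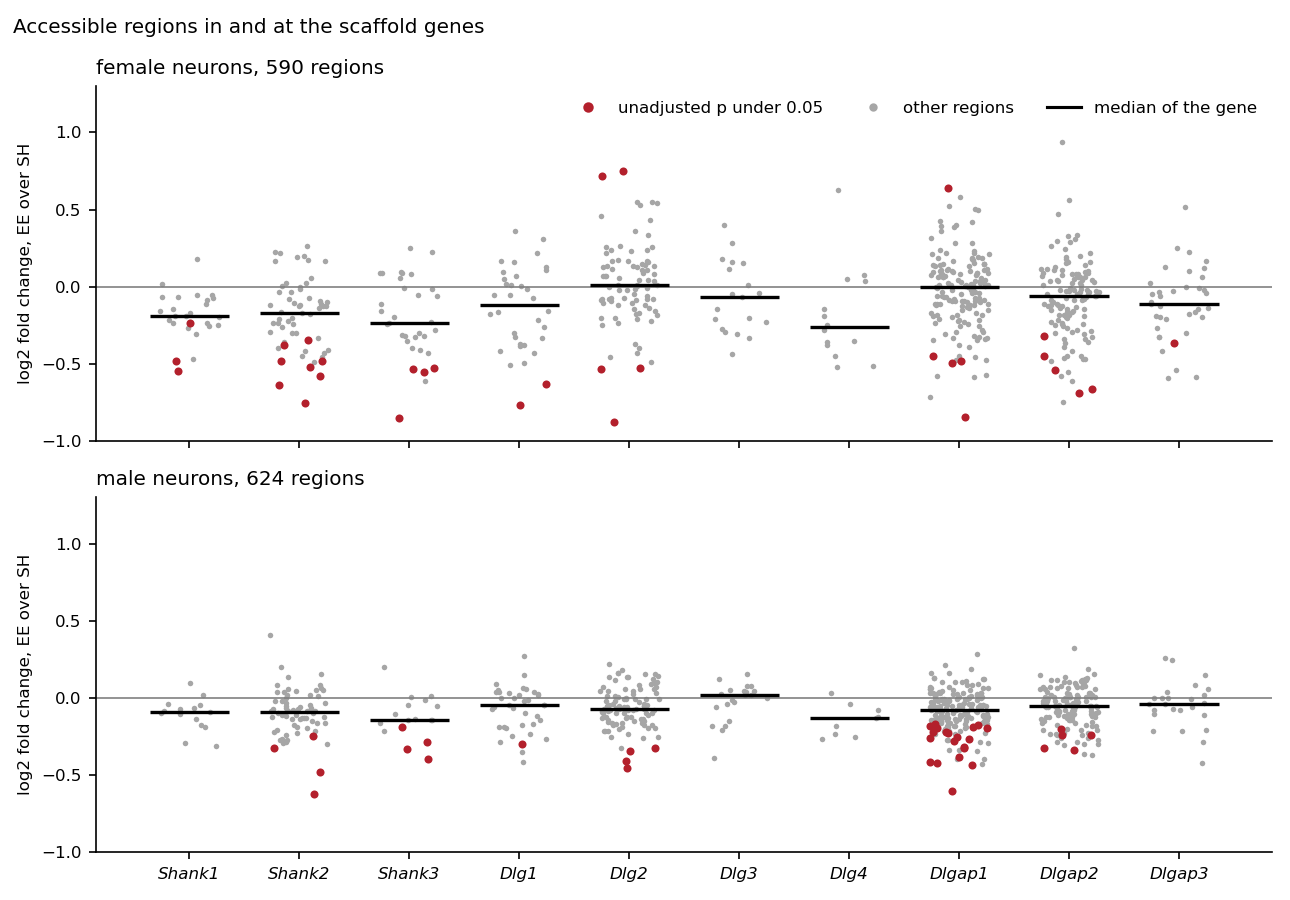
Log2 fold change of EE over SH for every accessible region of each gene, 590 regions in females (top) and 624 in males (bottom). Each point is a region, red where the unadjusted p is under 0.05, and bars are the gene's median. The medians of Shank1, Shank2 and Shank3 lie at -0.19, -0.17 and -0.23 in females, and the red points of Dlgap1 in males are 20 regions, all below 0.

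Taken by family, the Shank genes had the most regions below 0 for their number in females. Of their 117 regions, 95 had fitted values below 0, with a median of -0.19, and 15 had an unadjusted p under 0.05, all lower in EE (12.8%, against 3.48% of all regions tested). By gene, 24 of 26 Shank1 regions, 46 of 58 Shank2 regions and 25 of 33 Shank3 regions were below 0. So were 28 of 37 Dlgap3 regions, with a median of -0.11, and 10 of 14 Dlg4 regions, with a median of -0.26. In Dlg1, Dlg2, Dlg3, Dlgap1 and Dlgap2 the share was 47.1% to 63.2%. In males, 79 of 100 Shank regions were below 0, with a smaller median of -0.10. An unadjusted p under 0.05 was reached by 8, all lower (8.0%, against 1.92% of all regions tested). Outside the Shank genes, male shares below 0 ran from 47.6% in Dlg3 to 88.9% in Dlg4 (8 of 9 regions). Summed over each gene, the CPM of females were 127, 152 and 161 in EE and 153, 171 and 181 in SH for Shank1. Those of Shank2 were 247, 256 and 283 in EE and 266, 306 and 314 in SH, and those of Shank3 were 143, 162 and 171 in EE and 169, 175 and 192 in SH. For each of the 3 genes, every EE library lay below the SH median and 1 EE library lay inside the SH range. The log2 fold changes were -0.20 ± 0.08 for Shank1, -0.17 ± 0.07 for Shank2 and -0.17 ± 0.07 for Shank3 (SE; adjusted p = 0.538, 0.538 and 0.572, edgeR). An unadjusted p under 0.05 was reached by these 3 genes and no other member, by 0 members without EE replicate 2 or SH replicate 3, by 1 without SH replicate 2 and by 5 without SH replicate 1, in a summed fit chosen after seeing the data. Of all 24278 genes summed in this way, 7.99% had such a p, 4.64% with lower values in EE, and 0.0206% were called, 0 of them members. Of the 58 partner genes in this female fit, 15 had such a p (25.9%), 13 of them lower in EE and 2 higher. In males the summed values of Shank1, Shank2 and Shank3 were -0.07 ± 0.16, -0.08 ± 0.10 and -0.12 ± 0.08, with groups that overlapped.

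The 6 female regions with the smallest p all belonged to Shank genes. With 3 libraries a group, ranges that do not overlap are common: they were found for 72 of the 590 member regions (12.2%), 54 of them with EE below SH, and for 12.8% of all regions, 6.3% with EE below SH. Positions are on mm10, as the tables give them, and whether they fall in exons or introns was not assigned. The first lies inside Shank1 at chr7:44333790-44334995, 24.1 kb from the start, and had 5.03, 6.32 and 8.18 CPM in EE against 8.34, 9.85 and 10.4 CPM in SH. Its groups did not overlap (log2 fold change -0.55 ± 0.17, SE; adjusted p = 0.247). The second lies inside Shank3 at chr15:89527912-89528328, 28.5 kb from the start, and had 0.968, 1.85 and 2.00 CPM in EE against 2.75, 2.79 and 3.18 CPM in SH (-0.85 ± 0.28, adjusted p = 0.292), also with no overlap. Its counts were low, at 51.8 per library on average. Of the 4 Shank2 regions, 3 lie in a stretch 314.9 to 323.3 kb from the start. The region at chr7:144316173-144317494 had 14.9, 15.1 and 17 CPM in EE against 18.4, 20.2 and 21.1 CPM in SH (-0.34 ± 0.12, adjusted p = 0.372). The region at chr7:144321250-144321930 had 2.32, 2.87 and 3.29 CPM in EE against 2.88, 4.47 and 5.85 CPM in SH, with groups that overlapped (-0.64 ± 0.23, adjusted p = 0.390). The region at chr7:144324366-144326015 had 11.0, 11.6 and 12.7 CPM in EE against 14.2, 15.8 and 15.9 CPM in SH (-0.38 ± 0.13, adjusted p = 0.360). The groups of both this region and the first of the stretch did not overlap. The last, at chr7:144407585-144408026 and 405.9 kb from the start, had 3.17, 3.25 and 4.11 CPM in EE against 4.42, 5.67 and 5.71 CPM in SH (-0.58 ± 0.21, adjusted p = 0.369).

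The same Shank positions were read in the male table, which the choice of these regions did not use. Of the 6 female regions, 4 overlapped a male region, 3 of those had fitted values below 0, and 1 had an unadjusted p under 0.05. That was the Shank2 region chr7:144316152-144317740, with 7.71 ± 0.909 CPM in male EE and 9.07 ± 1.33 CPM in male SH (SD, n = 6 and 7; log2 fold change -0.24 ± 0.10, adjusted p = 1). The male region over the first Shank1 position had 7.85 ± 1.99 CPM in EE and 7.24 ± 1.93 CPM in SH (0.10 ± 0.20). Over all overlapping pairs of a female and a male region, fitted values were below 0 in both sexes for 240 of 517 member pairs (46.4%), against 30.8% of all 149361 pairs, and above 0 in both for 8.51% against 22.6%. In the Shank genes both were below 0 in 19 of 24 pairs for Shank1, 33 of 55 for Shank2 and 16 of 23 for Shank3. Such shares depend on each sex's own share below 0, which was 61.7% of member regions in females and 71.6% in males. They therefore do not show agreement at single positions, which was not tested.

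**Figure D4:**
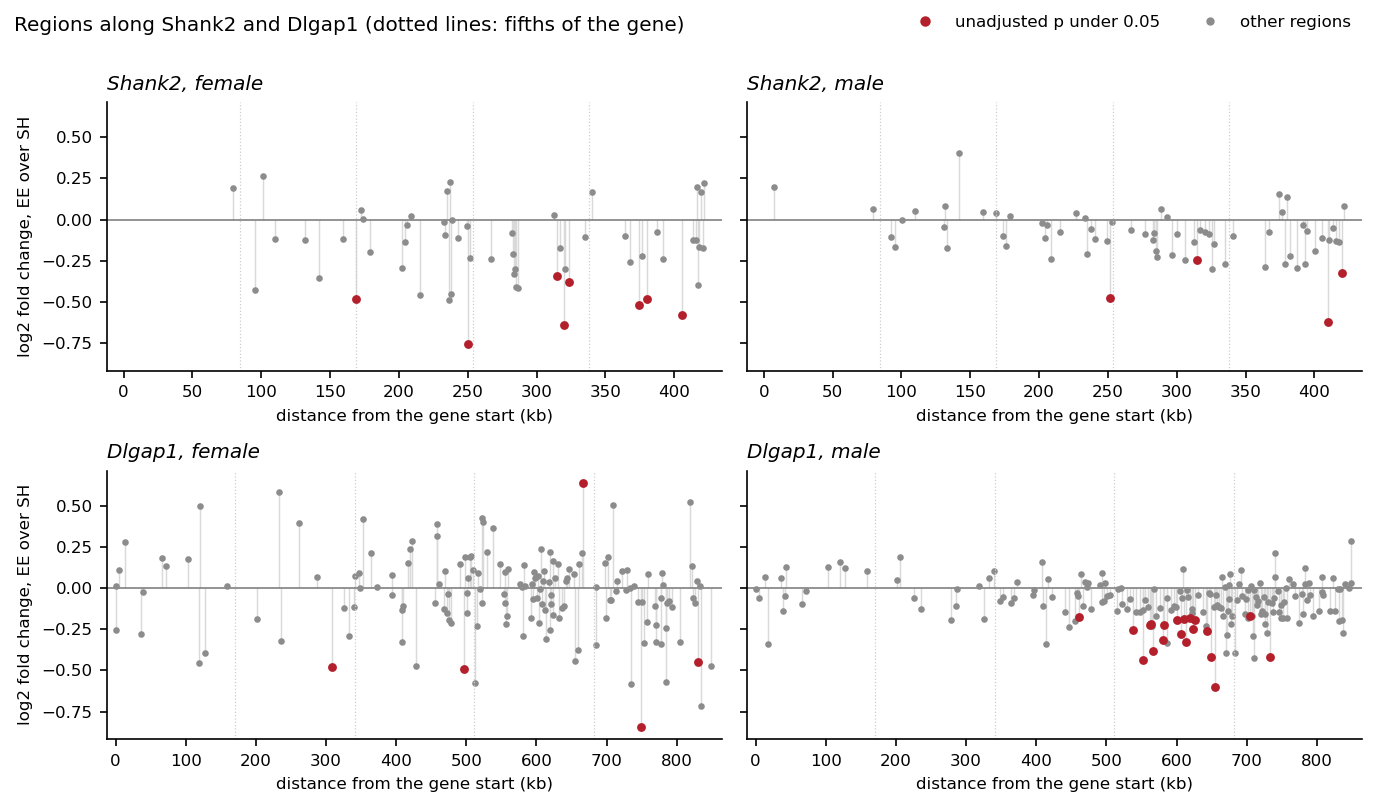
Log2 fold change of EE over SH against distance from the gene start in kb for the regions of Shank2 (top) and Dlgap1 (bottom), females left and males right. Red points have an unadjusted p under 0.05, and dotted lines divide the gene into 5 equal lengths. In males, 17 of the 20 red Dlgap1 points fall between 511.4 and 681.9 kb.

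In males the Dlgap1 gene held most of the member regions with small p by number. Shank3 had a larger share, with 4 of its 17 regions (23.5%), all lower in EE. Of the 189 Dlgap1 regions, 145 had fitted values below 0. An unadjusted p under 0.05 was reached by 20 of the Dlgap1 regions, all lower in EE (10.6%, against 1.92% of all regions). When the gene was divided into 5 equal lengths, a division chosen after seeing the data, 17 of the 20 lay in the length between 511.4 and 681.9 kb from the start, where 59 of 65 regions were below 0 with a median of -0.13. In females, 25 of the 57 regions of that length were below 0, with a median of 0.02, and 1 had an unadjusted p under 0.05, in the other direction. The difference between the sexes was not tested for regions, which were defined separately in each. The stretch surrounds the internal RefSeq start printed above, where the male region chr17:70560247-70563235 had 11.0 ± 1.07 CPM in EE and 12.1 ± 0.605 CPM in SH (SD, n = 6 and 7). Summed over the gene, Dlgap1 had 711, 782 and 815 CPM (lowest, median and highest) in male EE and 777, 838 and 849 CPM in male SH. All 6 EE libraries lay below the SH median and 4 lay inside the SH range (log2 fold change -0.09 ± 0.04, adjusted p = 1). It was the only member with an unadjusted p under 0.05 in the summed male counts, against 2.79% of all genes and 1.43% lower in EE. That number was 0 when EE replicate 2, EE replicate 4 or any of SH replicates 1, 3, 4, 5 and 7 was left out, 3 when SH replicate 6 was, and 0 with scaling by total count. In females Dlgap1 had 650, 719 and 721 CPM in EE and 684, 695 and 718 CPM in SH, with a log2 fold change of 0.00 ± 0.06 whose sign turned with the scaling (0.01 by total count).

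The male Dlgap1 region with the smallest p, at chr17:70568210-70572568 and 601.3 kb from the start, had 16.6, 19.5 and 20.1 CPM (lowest, median and highest) in EE and 21.2, 21.7 and 22.3 CPM in SH. Male groups did not overlap in 1 of the 624 member regions, this one (0.16%, against 0.123% of all regions, or 0.0596% with EE below SH; log2 fold change -0.19 ± 0.06, adjusted p = 1). The female regions over it had log2 fold changes of -0.06 ± 0.40, 0.07 ± 0.13 and -0.21 ± 0.29. The next Dlgap1 regions were chr17:70623882-70624229 with 0.637 ± 0.15 CPM in EE and 0.964 ± 0.159 CPM in SH (-0.60 ± 0.19), chr17:70549661-70553914 with 10.5 ± 0.684 and 12.2 ± 0.814 CPM (-0.22 ± 0.07) and chr17:70593836-70597197 with 18 ± 1.81 and 20.6 ± 1.09 CPM (-0.20 ± 0.07), in male EE and male SH. The remaining leading male regions were 1 in Shank2 and 1 in Dlg2. The Shank2 region, chr7:144411602-144412111, had 0.795 ± 0.195 CPM in EE and 1.22 ± 0.337 CPM in SH (-0.62 ± 0.20, adjusted p = 1). The Dlg2 region, chr7:91420140-91420882, had 1.51 ± 0.377 CPM in EE and 2.04 ± 0.251 CPM in SH (-0.45 ± 0.15, adjusted p = 1). Of the 6 leading male positions, 5 overlapped female regions, and of those 9 female regions 4 had fitted values below 0 and 0 had an unadjusted p under 0.05.

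**Figure D5:**
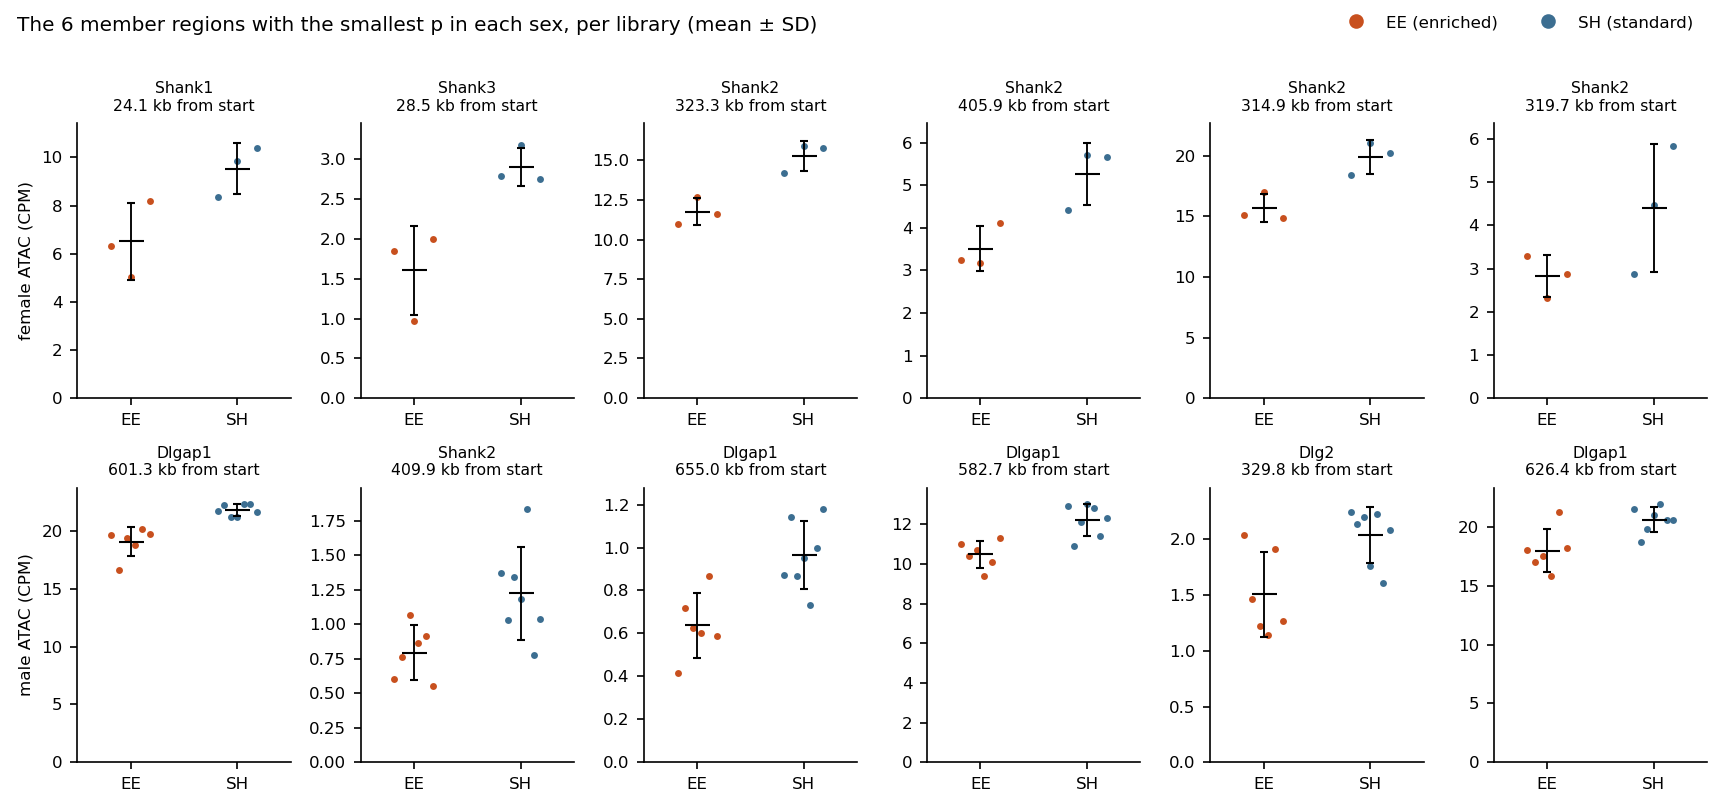
ATAC signal in CPM (axes start at 0) per library at the 6 member regions with the smallest p in females (top) and in males (bottom), EE left of SH, with mean ± SD (n = 3 and 3 in females, 6 and 7 in males). The regions were taken for their small p, so their differences are a description. The Dlgap1 region 601.3 kb from the start has 16.6 to 20.1 CPM in EE and 21.2 to 22.3 CPM in SH.

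The Dlg genes and the other Dlgap genes follow. In females, 83 of 152 Dlg regions were below 0, with a median of -0.04, and 7 had an unadjusted p under 0.05, 5 lower and 2 higher. These 7 were 4.61%, against 8.01% of all regions tested, and the 5 lower ones 3.29%, against 3.48%. In males, 116 of 171 were below 0, with a median of -0.06. Summed over Dlg1, females had 98.6, 100 and 101 CPM in EE and 103, 108 and 111 CPM in SH, with a log2 fold change of -0.10 ± 0.07 (adjusted p = 0.736). Dlg4 had 73.3, 76.4 and 88.7 CPM in female EE and 75.1, 99.8 and 99.9 CPM in female SH (-0.20 ± 0.10, adjusted p = 0.638). Without female SH replicate 1, the library at 75.1 CPM, Dlg4 was called (-0.32, adjusted p = 0.0428), in a fit chosen after seeing the data in which 334 genes were called, against 5 of 24278 (0.0206%) with all libraries. Dlg2 (0.01 ± 0.06) and Dlg3 (-0.04 ± 0.08) were near 0 in females. Dlgap2 had 577 ± 26.9 CPM in female EE and 606 ± 32.3 CPM in female SH (SD, n = 3 each; -0.07 ± 0.06), and Dlgap3 had 199 ± 10.5 and 215 ± 22.9 CPM (-0.11 ± 0.07). Summed values were below 0 for 9 of 10 genes in females, against 61.3% of all genes, and for 10 of 10 in males, against 60.4%, although with scaling by total count Dlgap1 was at 0.01 in females and Dlg3 at 0.0047 in males. The median log2 level of the 10 summed genes had an SD between libraries of a group of 0.0761 in females and 0.159 in males. With all libraries, 0 members were called in the summed counts of either sex, against 0% of 27730 genes in males (773 genes had an unadjusted p under 0.05, and DESeq2 called 1, not a member).

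No region at a member's start passed the test. Member regions within 1 kb of a start had a median log2 fold change of -0.06 over 17 regions in females and -0.05 over 12 in males, against -0.06 and -0.02 for all regions within 1 kb of any start. The Dlg2 start region of females, chr7:91090296-91090713, had 2.71, 2.79 and 3.04 CPM in EE and 3.54, 4.15 and 4.62 CPM in SH, groups that did not overlap (-0.53 ± 0.22, adjusted p = 0.510). The other female regions within 1 kb of that start were chr7:91089348-91089912, at -0.01 ± 0.19, and chr7:91090827-91091671, at 0.11 ± 0.19, both with overlapping groups. The wider male region over the same start had 7.19, 8.04 and 9.49 CPM (lowest, median and highest) in male EE and 7.36, 8.26 and 10.5 CPM in male SH (-0.09 ± 0.09). The region beside the Shank3 start had 26.3, 26.9 and 29.9 CPM in female EE and 25.6, 28.4 and 30.3 CPM in female SH (-0.02 ± 0.11), and the GC-rich window printed above follows it directly. The Dlg3 start had 22.2 ± 1.04 CPM in female EE and 22.0 ± 0.748 CPM in female SH, and 18.3 ± 0.913 and 18.5 ± 1.36 CPM in male EE and male SH. Dlgap2 had the broadest start region, 5307 bases in males, with 24.5 ± 3.19 CPM in EE and 25.4 ± 3.66 CPM in SH (-0.06 ± 0.09). The start regions of Dlg1 (-0.16 in females, 0.03 in males and -0.0023 there with limma-voom), Dlg4 (-0.28 and -0.23), Dlgap1 (-0.26 and -0.01, or 0.0034 in males with scaling by total count) and Dlgap3 (-0.26 and -0.10) had overlapping groups in both sexes, as did that of Shank1 (-0.07 and -0.06). These are the regions at or nearest each start. Further female regions within 1 kb were at 0.05 for Dlg4, 0.01 for Dlgap1, -0.06 for Dlgap3, -0.06 for Shank3 and -0.05 and -0.11 for Shank1, and further male ones at 0.06 for Dlgap3, -0.14 for Shank3 and -0.05 for Shank1. Shank2 had no region within 1 kb of its annotated start in either sex. Its nearest region lay 79.7 kb into the gene in females (0.19 ± 0.21) and 7.6 kb in males (0.20 ± 0.17).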

How the data were processed

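The deposited tables hold raw read counts made by the authors, per Ensembl gene for nuclear RNA and per accessible region for ATAC, with 1 table per sex and assay and no normalization. Per the submitters' processing notes, the authors' tools included DiffBind 3.2.2, MACS2 2.1.1, STAR 2.5.4, SAMtools 1.3.1, bedtools, edgeR and DESeq2 1.16.1, and the build was mm10. The sources used here do not name the read counter or say whether region starts count from 0 or 1.

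Groups follow the labels. Each of the 4 tables (43 libraries in all) was fitted alone over all features in edgeR 4.0.16 (R 4.3.3) using TMM scaling, filterByExpr for low counts and the robust quasi-likelihood F test. A feature was called where its Benjamini-Hochberg adjusted p was below 0.05. Positive log2 fold changes mean higher in EE. Levels are CPM (counts-per-million after TMM). SE is the log2 fold change divided by the square root of F, and intervals use the t quantile. RNA CPM per kb uses the gene span. ATAC counts were also summed per gene. Named regions are, per sex, the 6 member regions with the smallest p and the region at or nearest each start. Named partners are the 3 with the smallest p per table. The scripts were tested on simulated data. Alternatives used DESeq2 1.42.0, limma 3.58.1 (voom), other scalings, no filter, a marker covariate, the replicate block and leaving out each library. The members, the partner list and the marker lists were chosen with earlier results of these data known. Symbols were matched for 53274 of 53379 IDs.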

Additional observations from a re-analysis of the deposited data

Results flagged for a closer look

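Of 60 groups of RNA or summed ATAC values checked for a library far from the others, 3 held one, and chance flags about 1 group in 20. Dlgap3 had 272 CPM in female EE replicate 1, against 236 to 245 CPM in the other 5 EE libraries. Shank2 had 746 CPM in male SH replicate 3, against 599 to 654 CPM in the other 5 SH libraries. Dlgap2 had 2670 CPM in male EE replicate 4, against 2956 to 3065 CPM in the other 5 EE libraries.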

How the results depend on the processing

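With all libraries, 0 members were called in RNA, in regions, in the interaction or in summed ATAC counts under any setting tried. Counts of all features called moved more. Female RNA gave 0 calls as reported, 1 with total count scaling, 168 with no low-count filter, 117 with DESeq2 and 42 with the non-neuronal marker covariate. Male RNA gave 136 with no filter and 61 with DESeq2. DESeq2 called 122 female and 7 male regions, 91 genes in the interaction, and 21 female genes and 1 male gene in summed ATAC counts. Summed female counts also gave 15 without the start regions, 3 with RLE size factors and 0 with total count scaling. The cause of these shifts was not tested. The summed fits and their alternatives were chosen after seeing the data.

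The labels do not say whether equal replicate numbers pair libraries. The correlations of deviations of same-numbered EE and SH libraries ran from 0.036 to 0.306 in female RNA, where all 6 were above the mean with other numbers and 3 of 6 numbers gave the best match, a hint from the data and not the design. They ran from -0.03 to 0.226 in male RNA, from -0.071 to 0.07 in female ATAC and from -0.103 to 0.171 in male ATAC, so in no table was every one over 0.1. In male RNA, most EE and SH libraries of equal replicate number carry different numbers in their deposited column names. A pairing by those names was not tested there. With the replicate number as a block, calls were 95 in female RNA, 3 in male RNA, 34 in female and 1 in male regions, 28 in the interaction and 0 in summed female counts. The block turned the male Dlg3 start region to 0.0045, and changed no call of a member.

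Leaving out 1 library gave 0 to 85 calls in female RNA (85 without SH replicate 2), 0 to 11 in male RNA (11 without EE replicate 5), 22 to 333 female regions (22 without SH replicate 2, 333 without SH replicate 1), 0 to 3 male regions (3 without SH replicate 6), 0 to 39 in the interaction (39 without female SH replicate 2) and 0 to 334 in summed female counts, with 0 to 1 member called (334 and 1 without SH replicate 1).

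Signs turned for values near 0, and also for some as large as the region medians of -0.07. Among these were summed male Shank1 (-0.07 ± 0.16, SE) and the female Shank1 start region (-0.07 ± 0.21). With total count scaling, log2 fold changes were 0.01 for female RNA of Dlg4, -0.03 for male RNA of Shank3, -0.02 for Dlg3, -0.03 for Dlg4, -0.0042 for Dlgap1 and -0.01 for Dlgap3, 0.0034 for the male Dlgap1 start region, and 0.01 for female Dlgap1 and 0.0047 for male Dlg3 in summed counts. Female RNA of Dlgap1 was -0.0022 with RLE and with DESeq2, summed female Dlgap1 was 0.0011 with RLE, and the male Dlg1 start region was -0.0023 with limma-voom. With 1 library left out, female RNA ran from -0.03 to 0.01 for Dlg4 and from -0.01 to 0.02 for Dlgap1. Male RNA ran from -0.03 to 0.03 for Shank2 and Dlg4, from -0.01 to 0.02 for Shank3 and from -0.01 to 0.03 for Dlg3. Female start regions ran from -0.21 to 0.08 for Shank1, from -0.08 to 0.04 for Shank3 and from -0.01 to 0.05 for Dlg3. Male start regions ran from -0.15 to 0.02 for Shank1, from -0.08 to 0.02 for Shank3, from -0.04 to 0.09 for Dlg1, from -0.04 to 0.01 for Dlg3 and from -0.03 to 0.03 for Dlgap1. The interaction of Dlg4 ran from -0.05 to 0.01. Summed female counts ran from -0.02 to 0.04 for Dlg2 and from -0.03 to 0.04 for Dlgap1. Summed male counts ran from -0.17 to 0.0042 for Shank1, from -0.10 to 0.00099 for Dlg2, from -0.03 to 0.01 for Dlg3 and from -0.10 to 0.01 for Dlgap3. Of the alternative values for single genes, regions and member summaries, 1601 kept their direction and side of the threshold, 70 turned sign, 35 were weaker and 5 stronger. The number of libraries, 3 a group in female ATAC, and the spread between them limit the precision.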
